A study of Mus musculus with 114 samples.

Results

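Adipsin, encoded by Cfd, was examined in perigonadal adipocytes of mice together with the 8 genes listed as its neighbours on mouse chromosome 10: Ptbp1, Prtn3, Elane, Med16, R3hdm4, Kiss1r, Arid3a and Wdr18. The members were taken by symbol, giving 9 of the 29132 genes of the expression table. Cfd was chosen by its measured level, the CPM in all 38 mice of both diets, so its levels are given as a description with no test. The neighbours were listed for where they lie, but with earlier results of these data known. Their differences were tested within a fit of the whole table, so their p-values are not independent of that choice. The filter on low values (a mean log2(CPM + 1) above 2) was passed by 8 members, and Elane did not pass it.

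Male C57BL/6J mice received chow or control diet, called CD here, or high fat diet, called HFD, over 8, 20 or 34 weeks, beginning when they were 6 weeks old. The groups held 6 CD and 6 HFD mice at 8 weeks, 6 and 6 at 20 weeks, and 8 and 6 at 34 weeks, 38 mice in all, with no transgene or drug in any group. Perigonadal fat was digested with collagenase, the floating cells were kept as the adipocyte fraction, and polyadenylated RNA was sequenced in 3 technical replicates a mouse that were merged into 1 column. Values are CPM, the reads of a gene scaled to a fixed total in each mouse, with 9275711 to 15480388 reads a mouse (median 12522298.5), so that 1 read was worth 0.0646 to 0.108 CPM. The control animals received 1 of a pair of low fat formulas, and which mouse received which is not given in the sources used here, so a part of the CD spread cannot be told apart from the formula. The floating fraction was not sorted further.

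Factor D is the serine protease of the alternative pathway of complement. It cuts factor B bound to C3b, which completes the C3 convertase of that pathway, and in mice fat cells are its main source. Prtn3 and Elane lie just upstream of Cfd and encode proteinase 3 and neutrophil elastase, serine proteases of the same family that neutrophil precursors in the bone marrow pack into azurophil granules. Downstream of Cfd, and transcribed towards it, Med16 encodes a subunit of the Mediator complex that links transcription factors to RNA polymerase II. Ptbp1 encodes a splicing repressor, Kiss1r the receptor of kisspeptin, Arid3a a DNA-binding protein with an AT-rich interaction domain, and Wdr18 a WD repeat protein that acts in ribosome assembly.

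The 9 genes spanned 115777 bases in the GENCODE annotation of GRCm38, in the order Ptbp1, Prtn3, Elane, Cfd, Med16, R3hdm4, Kiss1r, Arid3a and Wdr18. Cfd lay at chr10:79890853-79892655 on the plus strand, 2637 bases past the end of Elane (chr10:79886247-79888215), which began 3072 bases past the end of Prtn3 (chr10:79874476-79883174). The 3′ end of Med16 (chr10:79894708-79908923, minus strand) was 2052 bases from that of Cfd. R3hdm4 was the other member on the minus strand, and the remaining members were on the plus strand. Exons of R3hdm4 and Kiss1r overlapped on opposite strands over 247 bases, or 6.41% of the exonic length of Kiss1r. Exons of Ptbp1 and of Prtn3 overlapped those of Plppr3, which lies between them on the minus strand and was not analysed here, by 251 and 159 bases. Ptbp1 also shared 295 and 437 exonic bases with the antisense genes E130317F20Rik and Gm17134, and R3hdm4 shared 284 with Gm26602. The libraries carried strand, but the strand setting used in counting is not given in the sources used here, so reads from these overlaps may belong to either gene.

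The 250 bases before the RefSeq start (GRCm38.p6, plus strand) are shown for the 3 protease genes of the locus, because they stand side by side on the chromosome and differ in where they are known to be active. Of the 9 members, 8 had an entry in the RefSeq promoter table, and Arid3a had none. Capitals mark matches to TATAA, the core of a TATA box, and to GAGGAAGT, a core bound by the myeloid factor PU.1.
Prtn3, chr10:79879417-79879666: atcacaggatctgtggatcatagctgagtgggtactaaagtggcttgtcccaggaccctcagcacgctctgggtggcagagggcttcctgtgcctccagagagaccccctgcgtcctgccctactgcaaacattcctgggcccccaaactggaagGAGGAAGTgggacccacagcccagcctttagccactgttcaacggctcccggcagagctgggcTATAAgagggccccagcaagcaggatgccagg
Elane, chr10:79886062-79886311: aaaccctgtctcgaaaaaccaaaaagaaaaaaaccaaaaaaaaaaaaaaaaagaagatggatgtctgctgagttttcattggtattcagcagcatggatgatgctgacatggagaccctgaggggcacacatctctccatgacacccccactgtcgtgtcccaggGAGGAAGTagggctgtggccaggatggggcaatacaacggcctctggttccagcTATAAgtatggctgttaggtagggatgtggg
Cfd, chr10:79890603-79890852: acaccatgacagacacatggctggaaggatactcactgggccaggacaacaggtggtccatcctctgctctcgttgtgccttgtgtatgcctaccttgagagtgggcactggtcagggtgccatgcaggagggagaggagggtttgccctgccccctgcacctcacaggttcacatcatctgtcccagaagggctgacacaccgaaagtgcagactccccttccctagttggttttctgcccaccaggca
The RefSeq start of Prtn3 lies within the longer GENCODE gene. Prtn3 and Elane both held TATAA, beginning 32 and 31 bases before the start, and GAGGAAGT, beginning 95 and 85 bases before it. Neither string occurred on either strand of the 250 bases before Cfd. Among all 32851 promoters of the table, 22.8% held TATAA and 2.44% held GAGGAAGT on 1 strand or the other in a window of this length. AACNG, a core of Myb sites, had 3 matches before Prtn3, 2 before Elane and 1 before Cfd, with a match in 74.2% of all promoters. TTGCNNAA, a core of C/EBP sites that 9.56% of promoters held, and AGGTCA, a nuclear receptor core that 14.0% held, matched none of the 3. The strings do not overlap each other by their letters, were chosen with the expression values known, and are matches of letters only.

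Cfd was among the most abundant transcripts of CD adipocytes and was lower in HFD mice at each of the 3 times. At 8 weeks the CD mice ranged from 14950 to 19823 CPM with a median of 17390, and the HFD mice from 805 to 7260 with a median of 3016. All 6 HFD mice lay below all 6 CD mice, with means of 3483 ± 2705 against 17207 ± 1822 CPM (SD) and a log2 difference of -2.76 (SE 0.437). The 20-week CD mice ranged from 13075 to 27570 CPM (median 19520) and the HFD mice from 729 to 2540 (median 1132). The groups were again apart, by a log2 difference of -4.03 (SE 0.437). At 34 weeks the CD mice ranged from 2680 to 16864 CPM (median 5375) and the HFD mice from 499 to 1530 (median 832). Every HFD mouse was below every CD mouse here too, with a log2 difference of -2.70 (SE 0.409). Of all genes tested, 22.8%, 37.2% and 2.46% did not overlap between the diets at 8, 20 and 34 weeks. The shift of Cfd differed less between 34 and 8 weeks, by 0.06 (SE 0.598), than between 20 and 8 weeks, by -1.26 (SE 0.618), and neither value was tested.

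**Figure D1:**
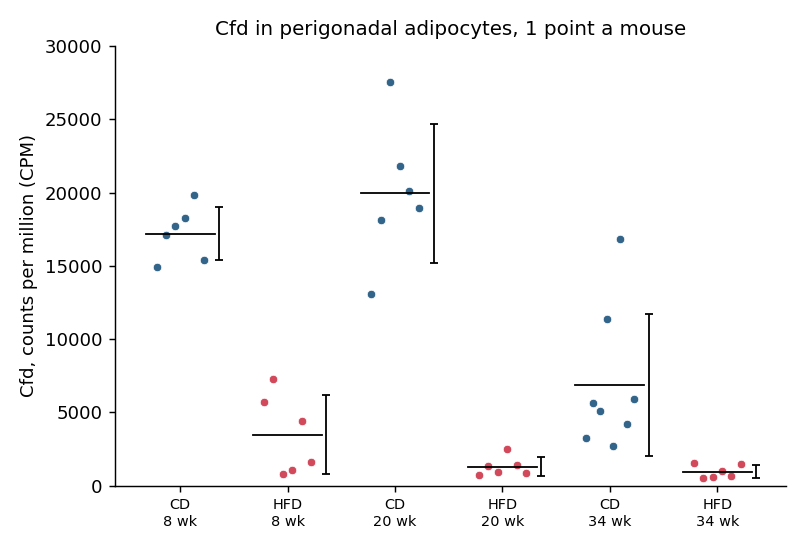
Cfd level in CPM on a linear axis, 1 point for each of the 38 mice, by diet and week, where horizontal lines are group means and error bars 1 SD. The HFD mice lie below the CD mice of the same week at 8, 20 and 34 weeks, and at 34 weeks CD mice 4 and 6 stand at 11343 and 16864 CPM, above the other 6 CD mice at 2680 to 5919.

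In CD mice Cfd made up 1.72% ± 0.182 (SD, n = 6) of all reads at 8 weeks, 1.99% ± 0.476 (n = 6) at 20 weeks and 0.688% ± 0.483 (n = 8) at 34 weeks. In HFD mice the share was 0.348% ± 0.271, 0.131% ± 0.0662 and 0.0965% ± 0.0446 (n = 6 each). Ordered by level among all genes of a mouse, Cfd stood at places 3 to 4 in the 8-week CD mice, 2 to 4 in the 20-week CD mice and 4 to 22 in the 34-week CD mice. In HFD mice its place ranged from 6 to 133 at 8 weeks, from 27 to 151 at 20 weeks and from 58 to 251 at 34 weeks. Per kilobase of exon the mean over all mice was 8918 CPM for Cfd, against 50.0 for Ptbp1, 12.5 for R3hdm4, 7.72 for Med16, 7.70 for Wdr18 and 6.42 for Prtn3. Elane (1.64), Kiss1r (1.59) and Arid3a (1.30) were the lowest of the 9 on this scale.

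From highest to lowest mean CPM of Cfd the groups stood in the order CD 20 weeks (19946 ± 4759), CD 8 weeks (17207 ± 1822), CD 34 weeks (6877 ± 4828), HFD 8 weeks (3483 ± 2705), HFD 20 weeks (1307 ± 662) and HFD 34 weeks (965 ± 446). Each neighbouring pair in this order overlapped in its range, so no adjacent groups were fully apart. The 8- and 34-week CD groups overlapped through 34-week mouse 6 alone. Within CD, the 34-week mice were lower than the 8-week mice by a log2 difference of -1.57 (SE 0.409) and than the 20-week mice by -1.76 (SE 0.409). All 8 of the 34-week CD mice were below the mean of the 8-week CD mice, yet mouse 6, at 16864 CPM, stood within their range.

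Relative to the mean, the spread of Cfd within a group was widest in the 8-week HFD and 34-week CD mice, and levels of other genes moved with it. Among the 8-week HFD mice, mice 1, 2 and 5 had 5737, 7260 and 4393 CPM of Cfd, and mice 3, 4 and 6 had 805, 1066 and 1638. Adipoq, which encodes adiponectin, stood at 5505, 6148 and 6000 CPM in the first 3 of these mice and at 3960, 4186 and 4304 in the other 3. The summed CPM of the adipocyte list of 10 genes did not follow Adipoq. The sums were 36014, 39422 and 34331 CPM in mice 1, 2 and 5 and 35660, 38862 and 33375 in mice 3, 4 and 6. Such a sum is weighted to its most abundant genes, Fabp4 first, and does not give the course of each gene. The macrophage list summed to 859, 1274 and 1236 CPM in mice 1, 2 and 5, below 3219, 2208 and 1867 in mice 3, 4 and 6. S100a8, a gene of the neutrophil list, stood at 4.55, 1.44 and 3.61 CPM in mice 1, 2 and 5 and at 20.2, 24.0 and 17.3 in mice 3, 4 and 6. Among the 34-week CD mice, mice 4 and 6 had the highest Cfd (11343 and 16864 CPM). Those 2 mice had the lowest sums of the macrophage list, at 1517 and 856 CPM, with 1737 to 9910 in the other 6. The part of other cell types in these differences was not tested.

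The adipocyte list (10 genes) was measured well in every mouse, with sums from 16363 to 46998 CPM and none of its genes under 1 CPM. Its median sum in CD and HFD mice was 37331 and 35837 CPM at 8 weeks, 36969 and 27297 at 20 weeks, and 36846 and 25555 at 34 weeks. Of its 10 genes, 1 rose and 1 fell at 8 weeks of HFD, 1 rose and 6 fell at 20 weeks, and 9 fell at 34 weeks, beside 15.1%, 18.7% and 15.7% of all genes tested that fell. Divided by the summed adipocyte list of the same mouse, Cfd differed between the diets at the 3 times by log2 -2.73, -3.65 and -2.14. That sum is weighted to abundant genes, with Fabp4 at a median of 15059 CPM over all mice. It also holds Lep, the gene that rose with HFD at 8 and 20 weeks (log2 2.18 and 2.90). The macrophage list, 7 of whose 8 genes were in the table, had median sums of 417 CPM in CD and 1570 in HFD mice at 8 weeks, 821 and 7894 at 20 weeks, and 3723 and 12092 at 34 weeks. Of these 7 genes 5, 5 and 6 rose with HFD at the 3 times, when 29.8%, 38.3% and 27.5% of all genes tested rose, and Cd163 fell at 20 weeks. The endothelial list had median sums of 45.7 CPM in CD and 161 in HFD mice at 8 weeks, 84.8 and 201 at 20 weeks and 58.2 and 129 at 34 weeks, and 5, 4 and 5 of its 5 genes rose. For the progenitor and fibroblast list the medians were 207 and 352, 176 and 686, and 255 and 383 CPM, and 3, 5 and 2 of its 5 tested genes rose. The mesothelial list summed to 5.82 to 54.7 CPM over the mice, with 2, 0 and 0 of its 3 tested genes higher. The epididymis and testis list, a check for neighbouring tissue, was at most 35.9 CPM in any mouse. In RNA of a whole cell fraction, fewer cells of a type and less RNA per cell cannot be told apart, and the part of these other cell types in the values below was not tested.

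Among the 7 neighbours that could be tested, 3 were differentially expressed genes (DEGs, adjusted p under 0.05 in limma over 10343 genes) at 8 weeks of HFD, 3 at 20 weeks and 5 at 34 weeks. Over all genes tested 44.9%, 57.0% and 43.2% passed the same threshold at these times, so the counts at 8 and 20 weeks are near the share of the whole table and that at 34 weeks is above it. Of all genes 29.8%, 38.3% and 27.5% were higher and 15.1%, 18.7% and 15.7% lower in HFD, while among the neighbours 2, 2 and 1 rose and 1, 1 and 4 fell. The 34-week count rested on mouse 3 of the HFD group, without which 2 of the 7 passed. With the 34-week mice fitted alone, 3 of the 7 passed, Ptbp1, R3hdm4 and Wdr18 no longer (adjusted p = 0.111, 0.0596 and 0.107) and Med16 in addition (adjusted p = 0.0361). On the CPM scale the median log2 difference over all genes was 0.11 at 8, 0.14 at 20 and 0.07 at 34 weeks of HFD, and in CD mice 0.13 for 34 against 8 weeks and 0.17 for 34 against 20 weeks. Differences of this size are near the level of the whole table. With TMM or median-of-ratios scaling these medians were between -0.07 and 0.03, and the higher calls at 8 weeks went from 3083 of 4648 to 2332 of 4544 and 2268 of 4581, at 20 weeks from 3957 of 5894 to 2711 of 6069 and 2941 of 5953, and at 34 weeks from 2840 of 4468 to 2317 of 4467 and 2287 of 4506.

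**Figure D2:**
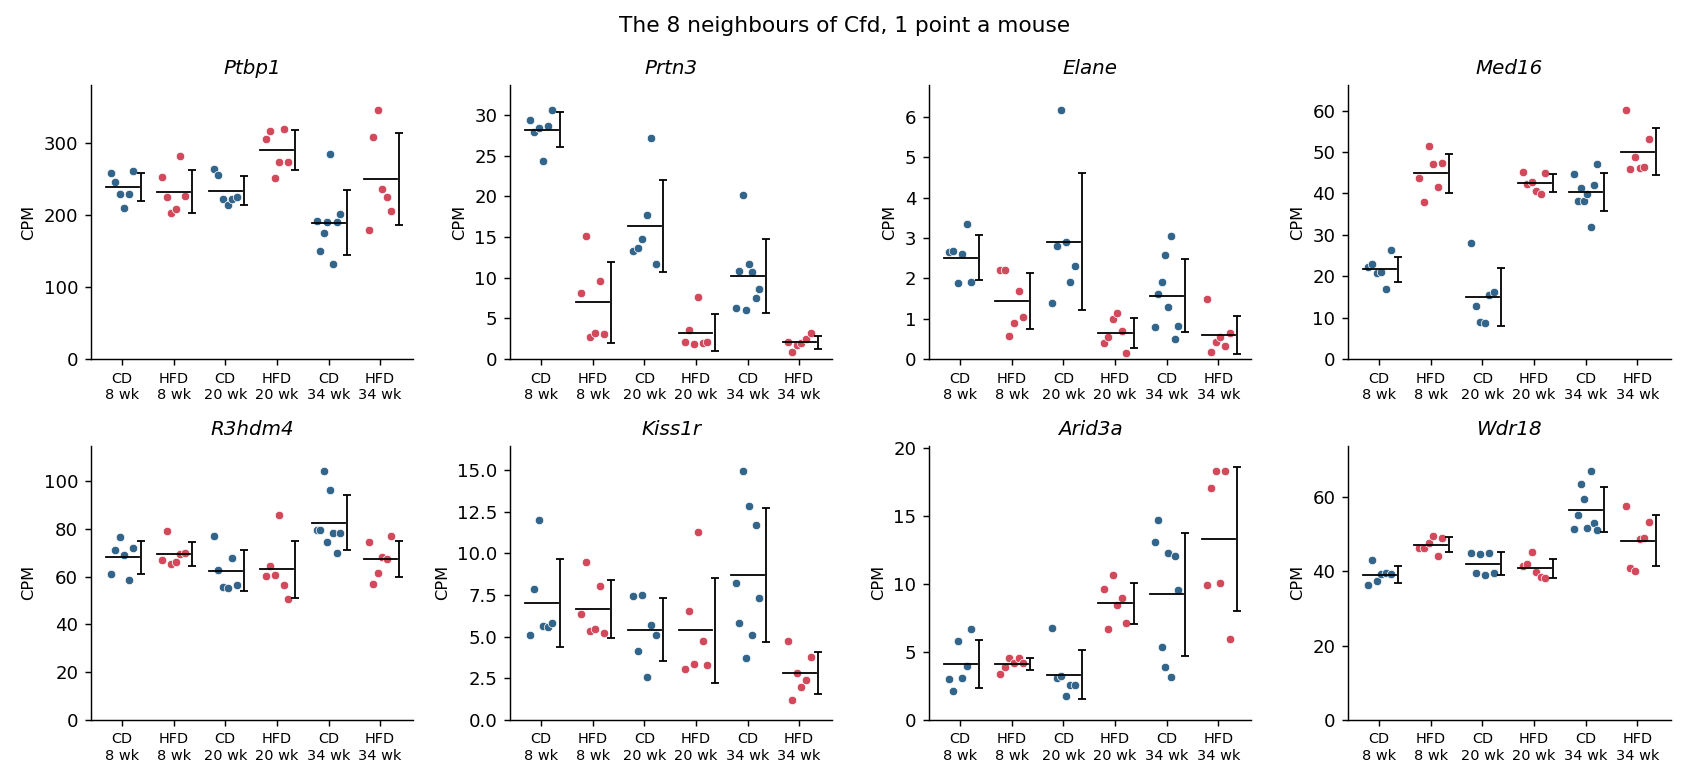
CPM of each of the 8 neighbours on linear axes from 0, 1 point a mouse, by diet (CD blue, HFD red) and week, with group means as lines and 1 SD as bars. Prtn3 and Elane have their higher points in CD mice, and Med16 is lower in CD than in HFD mice at 8 and 20 weeks. The ranges of R3hdm4 and of Ptbp1 overlap between the diets at each week.

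Prtn3, whose protein is stored in neutrophil granules, fell with HFD at all 3 times and was the neighbour with the largest diet difference at each of them. At 8 weeks the CD mice had 24.3 to 30.6 CPM (median 28.5) and the HFD mice 2.71 to 15.1 (median 5.63), a log2 fold change of -2.10 (SE 0.303, adjusted p = 4.46e-06). No HFD mouse reached the lowest CD mouse, a separation that 22.8% of all genes tested showed at 8 weeks. The 20-week CD mice had 11.7 to 27.1 CPM (median 14.2) and the HFD mice 1.90 to 7.66 (median 2.11), a log2 fold change of -2.12 (SE 0.303, adjusted p = 8.50e-07). The groups did not overlap, as for 37.2% of all genes at that time. At 34 weeks the CD mice had 6.03 to 20.1 CPM (median 9.65) and the HFD mice 0.857 to 3.18 (median 2.02), a log2 fold change of -1.83 (SE 0.283, adjusted p = 2.11e-05). Here too the groups were apart, which was so for 2.46% of all genes. The highest HFD mouse of the 20-week group, mouse 4 at 7.66 CPM, was also its highest for Cfd, at 2540 CPM.

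Prtn3 had 262 to 386 reads in the 8-week CD mice and 10 to 39 in the 34-week HFD mice. Set against Cfd of the same mouse, there were 1.66 ± 0.269 Prtn3 reads per 1000 Cfd reads in CD mice at 8 weeks and 2.31 ± 0.725 in HFD mice (SD, n = 6). At 20 weeks the values were 0.847 ± 0.296 in CD and 2.39 ± 0.575 in HFD mice (n = 6 each), and at 34 weeks 2.07 ± 1.41 (n = 8) and 2.27 ± 0.807 (n = 6). The ratio ran from 0.532 to 4.37 over the 38 mice. The diets did not overlap in it at 20 weeks, with 0.536 to 1.35 in CD and 1.43 to 3.01 in HFD mice, and at 8 and 34 weeks they did.

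The defining genes of granule-making neutrophil precursors were near the floor in these libraries. Mpo, which encodes myeloperoxidase, had at most 5 reads in any mouse and Ctsg, for cathepsin G, at most 6. Ms4a3 had no read in any mouse, and 3 reads, the limit that a count of 0 allows, would be 0.194 to 0.323 CPM. The sum of the 7 precursor genes was between 0.0745 and 4.76 CPM. Camp made up most of the highest sum (4.68 CPM) but none of the lowest, which was Mpo alone. The 7 mature neutrophil genes summed to medians of 4.90 CPM in CD and 16.1 in HFD mice at 8 weeks, 9.66 and 17.7 at 20 weeks, and 29.0 and 21.3 at 34 weeks. Of the 2 that could be tested, S100a8 rose at 8 weeks (log2 fold change 1.56, adjusted p = 0.00340) and Csf3r passed at none of the 3 times. Ly6g had no read in any mouse. These lists are given beside Prtn3 and Elane because both are known as neutrophil genes.

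Elane, for neutrophil elastase, was under the filter on low values, with 2 to 84 reads a mouse and at least 1 read in each. In reads, the 8-week CD mice had 20 to 39 (median 29) and the HFD mice 9 to 33 (median 19). At 20 weeks the CD mice had 20 to 84 (median 34) and the HFD mice 2 to 16 (median 9). The groups did not overlap, as for 37.2% of all genes tested in CPM at that time. At 34 weeks the CD mice had 6 to 36 (median 15) and the HFD mice 2 to 16 (median 5.5), with overlap. When the filter was dropped, the log2 difference was -0.56 at 8 weeks (adjusted p = 0.0840), -1.19 at 20 weeks (adjusted p = 0.000151) and -0.65 at 34 weeks (adjusted p = 0.0290) in limma. In edgeR's quasi-likelihood test on the recovered reads the differences were -0.92 (adjusted p = 0.0891), -2.38 (adjusted p = 7.93e-05) and -1.53 (adjusted p = 0.0101). Elane thus passed at 20 and 34 weeks in both of these tests and at 8 weeks in neither. Its reads per 1000 Cfd reads were higher on average in HFD than in CD mice, at 0.547 ± 0.2201 against 0.146 ± 0.0271 at 8 weeks, 0.522 ± 0.309 against 0.139 ± 0.0465 at 20 weeks (SD, n = 6 each) and 0.576 ± 0.224 (n = 6) against 0.256 ± 0.123 (n = 8) at 34 weeks. The diets were apart in this ratio at 8 weeks and overlapped at 20 and 34 weeks.

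Med16, the Mediator subunit transcribed towards Cfd, rose with HFD at 8 and 20 weeks. At 8 weeks the CD mice had 17.03 to 26.3 CPM (median 21.6) and the HFD mice 38.03 to 51.4 (median 45.4), a log2 fold change of 1.02 (SE 0.153, adjusted p = 7.68e-06). At 20 weeks the CD mice had 8.63 to 27.9 CPM (median 14.1) and the HFD mice 39.8 to 45.1 (median 42.5), a log2 fold change of 1.55 (SE 0.153, adjusted p = 5.48e-09). All HFD mice were above all CD mice at both times, when 22.8% and 37.2% of all genes tested did not overlap between the diets. At 34 weeks the CD mice had 31.9 to 47.0 CPM (median 40.6) and the HFD mice 45.9 to 60.2 (median 47.6), with overlap, and the log2 difference of 0.31 (SE 0.143, adjusted p = 0.0823) did not pass. The diet difference itself was smaller at 34 than at 8 weeks by log2 0.71 (interaction -0.71, adjusted p = 0.0106) and than at 20 weeks (interaction -1.24, adjusted p = 0.000428). It was the CD level that moved most, since the HFD means were 44.9, 42.6 and 50.1 CPM and the CD means 21.7, 15.0 and 40.4 CPM at 8, 20 and 34 weeks. In CD mice Med16 rose between 20 and 34 weeks (log2 1.47, adjusted p = 5.60e-10) and fell between 8 and 20 weeks (log2 -0.60, adjusted p = 0.0207). The latter did not pass without 20-week CD mouse 3 (log2 -0.48, adjusted p = 0.0848) or mouse 4 (log2 -0.47, adjusted p = 0.0864). The 34-week diet difference passed when 20-week CD mouse 1, which is in neither group but in the shared estimate of the spread, was left out (adjusted p = 0.0224).

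**Figure D3:**
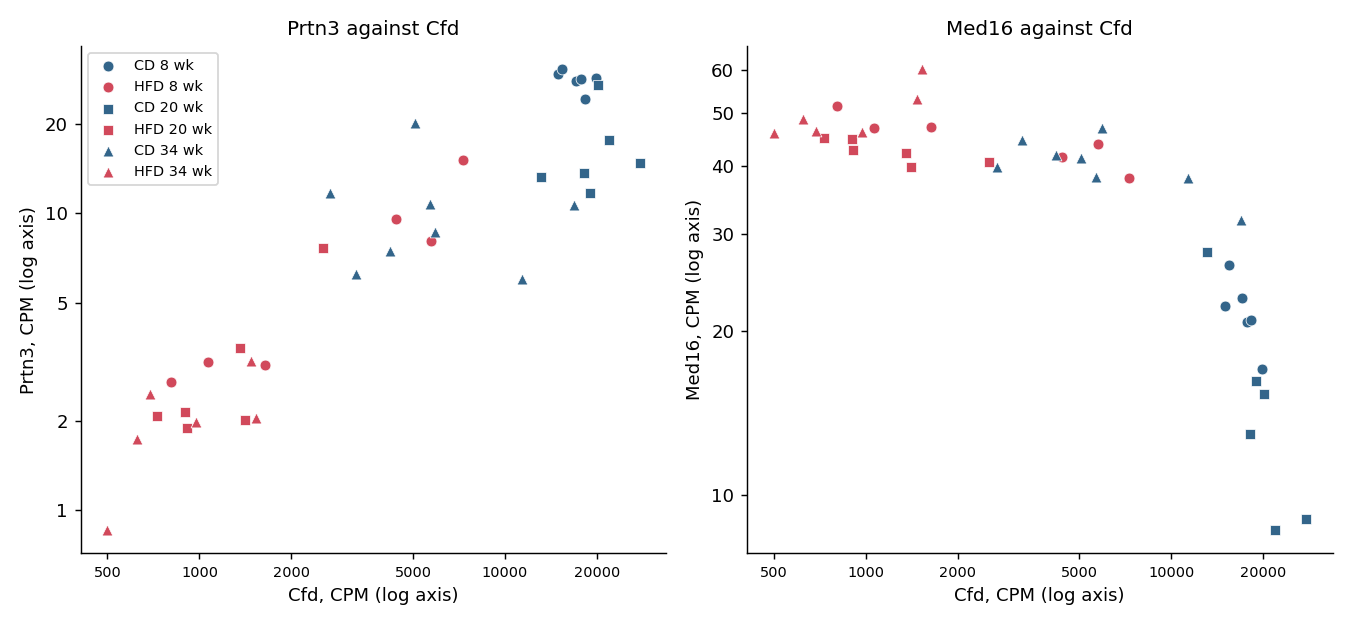
Prtn3 (left) and Med16 (right) against Cfd in each of the 38 mice, in CPM on log axes, with diet by colour and week by symbol. Over the 38 mice Prtn3 tends to be higher with more Cfd, but not within each group. The mouse with the most Cfd (20-week CD mouse 3, 27570 CPM) has 14.8 CPM of Prtn3, below the 24.3 to 30.6 CPM of the 8-week CD mice. Med16 lies between 31.9 and 60.2 CPM in every HFD and 34-week CD mouse. It lies at 8.63 to 27.9 CPM in the 8- and 20-week CD mice, whose Cfd is 13075 CPM or more.

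Arid3a, the AT-rich interaction domain gene, rose at 20 weeks, from 1.76 to 6.79 CPM in CD mice (median 2.83) to 6.64 to 10.6 in HFD mice (median 8.70), a log2 fold change of 1.21 (SE 0.292, adjusted p = 0.000690). Only CD mouse 1 reached the HFD range. At 8 weeks the difference was 0.07 (SE 0.292, 95% interval -0.52 to 0.66) and at 34 weeks 0.54 (SE 0.273, adjusted p = 0.107), the latter passing without 34-week HFD mouse 6 (log2 0.73, adjusted p = 0.0287). Wdr18, the ribosome assembly gene, rose slightly at 8 weeks, from 36.2 to 43.1 CPM in CD mice to 44.2 to 49.4 in HFD mice (log2 0.26, SE 0.077, adjusted p = 0.00610). The groups did not overlap, as for 22.8% of all genes tested, and the median of all genes moved by 0.11 the same way. Wdr18 did not pass with TMM or median-of-ratios scaling (adjusted p = 0.174 and 0.175), nor in edgeR or DESeq2. Its 20-week difference of -0.04 (adjusted p = 0.656) did not pass, but with TMM scaling and in edgeR Wdr18 was lower in HFD mice (log2 -0.25 in both, adjusted p = 0.0226 and 0.0305). At 34 weeks Wdr18 fell, from 51.2 to 67.1 CPM in CD mice to 40.0 to 57.6 in HFD mice (log2 -0.23, SE 0.072, adjusted p = 0.0101), and did not pass without HFD mouse 3 (adjusted p = 0.0502).

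Ptbp1, the splicing repressor, had CD means of 240, 234 and 190 CPM and HFD means of 233, 291 and 251 CPM at 8, 20 and 34 weeks. It rose at 34 weeks (log2 0.39, SE 0.126, adjusted p = 0.0121), and without 34-week HFD mouse 3 it did not pass (log2 0.29, adjusted p = 0.0645). At 20 weeks the difference of 0.31 (SE 0.135) stood at an adjusted p of 0.0501 and crossed the threshold when any 1 of 11 mice was left out or the 20-week mice were fitted alone. With TMM or median-of-ratios scaling it was 0.09 (adjusted p = 0.542) and 0.14 (adjusted p = 0.363), so it is near the shift of all genes. R3hdm4, which overlaps Kiss1r, fell at 34 weeks from 70.0 to 105 CPM in CD mice to 56.8 to 76.9 in HFD mice (log2 -0.28, SE 0.098, adjusted p = 0.0192). Without CD mouse 3 or HFD mouse 2 or 3 of that week the adjusted p was 0.0509, 0.0680 and 0.0521. At 8 and 20 weeks its differences were 0.03 and 0.00 (SE 0.105 each), within 95% intervals of -0.18 to 0.25 and -0.21 to 0.22.

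Kiss1r, the kisspeptin receptor, fell at 34 weeks of HFD, from 3.70 to 15.0 CPM in CD mice (median 7.76) to 1.20 to 4.76 in HFD mice (median 2.60), a log2 fold change of -1.30 (SE 0.267, adjusted p = 0.000362). CD mouse 4, at 3.70 CPM, was the one CD mouse inside the HFD range. At 8 and 20 weeks the differences were -0.04 and -0.07 (SE 0.285 each), with 95% intervals of -0.62 to 0.54 and -0.65 to 0.51. The diet difference at 34 weeks differed from that at 8 weeks (interaction -1.26, adjusted p = 0.0148) and from that at 20 weeks (interaction -1.23, adjusted p = 0.0376). The second of these did not pass when any 1 of 10 mice was left out, at adjusted p of 0.0506 to 0.0854, and then Med16 was the 1 neighbour left for that comparison.

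With age and longer feeding the neighbours, like the whole table, moved mainly between 20 and 34 weeks in CD mice. Between 8 and 20 weeks of CD, 1 of the 7 passed (Med16), beside 3.58% of all genes. Between 8 and 34 weeks of CD 6 of 7 passed and between 20 and 34 weeks 6 of 7, beside 64.7% and 62.5% of all genes. In the older CD mice Med16, R3hdm4, Arid3a and Wdr18 rose and Ptbp1 and Prtn3 fell in both comparisons. Prtn3 went from a mean of 28.2 CPM at 8 weeks to 10.2 at 34 weeks (log2 -1.46, SE 0.283, adjusted p = 4.38e-05), and Wdr18 from 39.1 to 56.6 CPM (log2 0.52, SE 0.072, adjusted p = 4.04e-07). R3hdm4 at 34 against 8 weeks did not pass with TMM scaling (log2 0.14, adjusted p = 0.202), so its rise there is near the shift of all genes, and it did not pass without 8-week CD mouse 5 (adjusted p = 0.0514). Between 20 and 34 weeks the fall of Prtn3 (log2 -0.67, adjusted p = 0.0400) did not pass without any 1 of 7 mice (adjusted p up to 0.127), nor that of Ptbp1 without any 1 of 3 mice (adjusted p up to 0.0596). Kiss1r was the one neighbour that passed in neither of these comparisons, with differences of 0.22 and 0.54 (SE 0.267 each), and the latter passed without 20-week CD mouse 1 or 34-week CD mouse 4 or 6 (adjusted p = 0.0489, 0.0249 and 0.0453).

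In HFD mice 3 of 7 neighbours passed between 8 and 20 weeks, 3 between 8 and 34 weeks and 1 between 20 and 34 weeks, beside 36.5%, 52.5% and 30.2% of all genes. Arid3a rose from 8 to 20 weeks (log2 0.89, adjusted p = 0.0169) and from 8 to 34 weeks (log2 1.39, adjusted p = 0.000205), with means of 4.12, 8.57 and 13.3 CPM at the 3 times. Prtn3 fell from a mean of 6.95 CPM at 8 weeks to 2.04 at 34 weeks (log2 -1.20, SE 0.303, adjusted p = 0.00134). Kiss1r fell between 8 and 34 weeks (log2 -1.04, SE 0.285, adjusted p = 0.00271). The fall of Prtn3 between 8 and 20 weeks (log2 -0.81) did not pass when any 1 of 7 mice was left out, with adjusted p of 0.0681 to 0.130. Wdr18 fell between 8 and 20 weeks (log2 -0.20, adjusted p = 0.0360) and rose between 20 and 34 weeks (log2 0.23, adjusted p = 0.0256). The former did not pass without any 1 of 6 mice, and the latter without any 1 of 4 mice or with TMM scaling (adjusted p = 0.126). The count between 8 and 20 weeks was 1 without 20-week HFD mouse 5 or 6. That between 20 and 34 weeks was 0 without 20-week HFD mouse 6 or 34-week HFD mouse 4 or 6, and 2 without 20-week HFD mouse 1 or 34-week HFD mouse 3. The diet difference itself changed between 8 and 20 weeks for 0 of the 7 neighbours in limma, beside 4.49% of all genes. In limma 3 of the 7 had an unadjusted p under 0.05, and at an adjusted p under 0.05 edgeR and DESeq2 gave 0. Without 20-week CD mouse 1 the change passed in limma for 2, Med16 (adjusted p = 0.00929) and Arid3a (adjusted p = 0.0297). The diet difference changed between 8 and 34 weeks for 3 (Med16, Kiss1r and Wdr18) and between 20 and 34 weeks for 2 (Med16 and Kiss1r), beside 28.8% and 10.5% of all genes, each time with a lower diet difference at 34 weeks. For Ptbp1 the diet difference was higher at 34 than at 8 weeks with TMM scaling (log2 0.45, adjusted p = 0.0432), with median-of-ratios scaling, in edgeR and in DESeq2, but not on the CPM scale.

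The members were set against the other genes of the region. The table held 32 genes whose lower coordinate lay within 250 kb either side of the start of Cfd, and 24 of them were tested. For genes on the minus strand this coordinate is the 3′ end. Of the 32, only members lay between Ptbp1 and Wdr18 by this measure, and Plppr3, named above, was not among the 32. Of the 16 tested genes that are not members, 9, 9 and 5 passed at 8, 20 and 34 weeks, beside 44.9%, 57.0% and 43.2% of all genes, with 7, 7 and 1 of them higher and 2, 2 and 4 lower in HFD. Their median log2 differences were 0.21, 0.20 and -0.18, beside 0.11, 0.14 and 0.07 over all genes. The 34-week count was 2 without HFD mouse 3, 3 without HFD mouse 2 or 5 or CD mouse 6, and 8 without HFD mouse 1 or CD mouse 5 of that week. Genes next to each other differed in sign and size, since Prtn3, Med16, R3hdm4 and Kiss1r, the 4 tested genes nearest to Cfd, had log2 differences of -2.12, 1.55, 0.00 and -0.07 at 20 weeks. Leaving out Cfd, no tested gene of the window had a lower diet difference than Prtn3 at any of the 3 times.

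**Figure D4:**
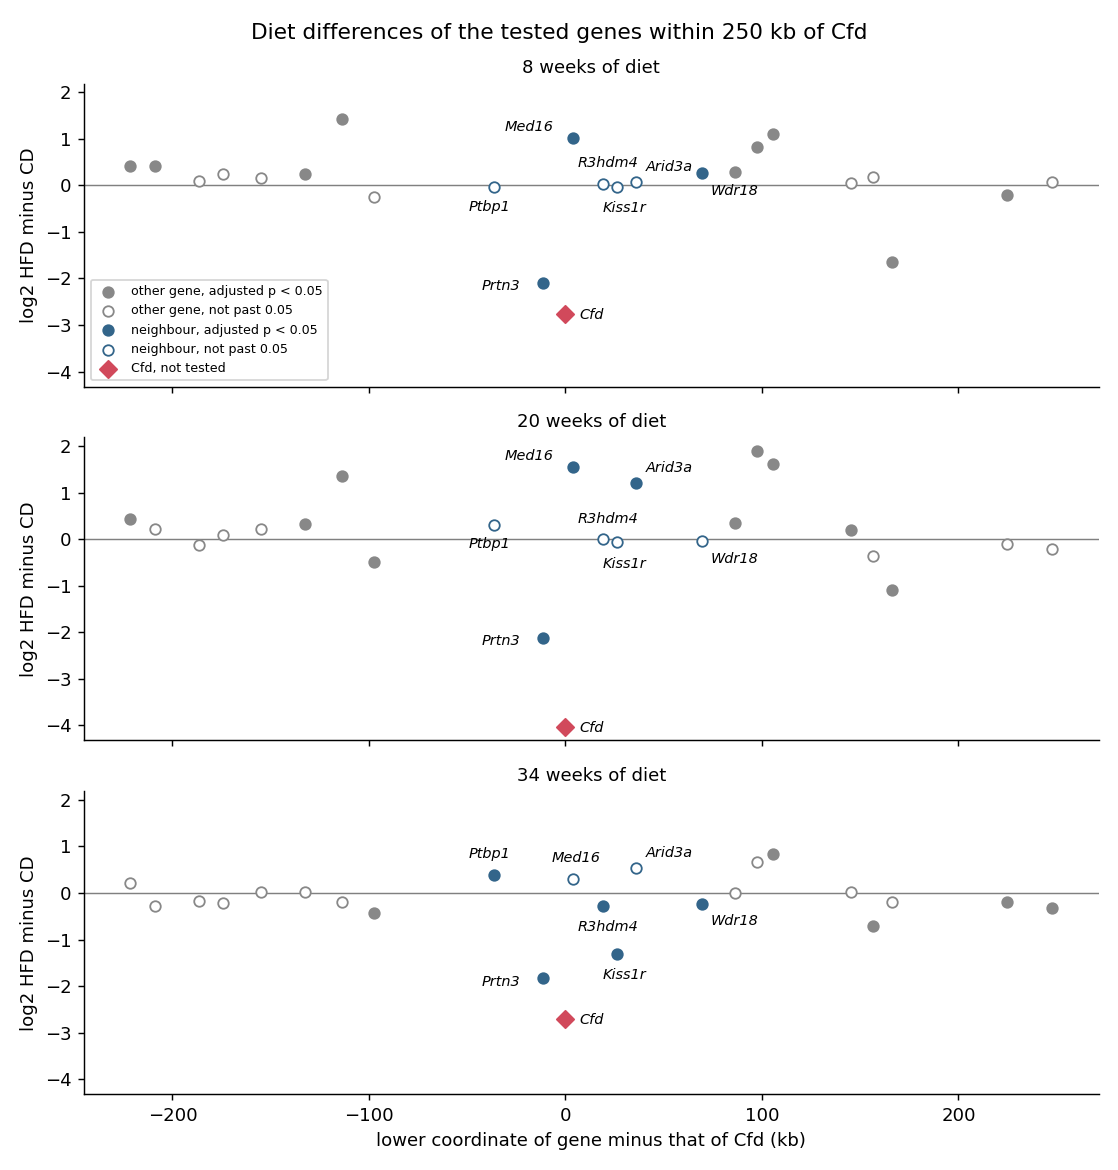
Log2 difference between HFD and CD mice for the 24 tested genes within 250 kb of Cfd, against the distance of each gene's lower coordinate from that of Cfd in kb, in 1 panel a time. Filled points passed an adjusted p of 0.05, members are named, and Cfd (diamond, not tested) and Prtn3 are the lowest points of each panel, beside Med16 above 0.

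The other genes of the alternative pathway were counted in the same way. The list held 12 genes, all in the table and 9 of them tested, of which 4 (all higher) passed at 8 weeks, 7 (6 higher, 1 lower) at 20 weeks and 3 (all higher) at 34 weeks. Over all genes 44.9%, 57.0% and 43.2% passed, more of them higher than lower, so that only the 20-week count is above the share of the whole table. The 8-week count was 2 when CD mouse 1, 2 or 3 or HFD mouse 3, 4 or 6 of that week was left out, and the 34-week count was 5 in edgeR and in DESeq2. The median log2 differences of the 9 genes were 0.65, 0.88 and 0.32, beside 0.11, 0.14 and 0.07 over all genes. C3, the central component, fell at 20 weeks (log2 -0.85, SE 0.348, adjusted p = 0.0375), with -0.58 and -0.25 at 8 and 34 weeks. The 20-week call of C3 was lost without any 1 of 8 mice (adjusted p up to 0.0691). Cfb, for the factor B that factor D cuts, had means of 43.1 and 46.4 CPM in CD and HFD mice at 8 weeks, 45.9 and 34.6 at 20 weeks and 35.6 and 23.2 at 34 weeks, and passed at none. Cfp, for properdin, which stabilises the convertase, rose at 20 weeks (log2 1.01, SE 0.433, adjusted p = 0.0459), but did not pass with TMM scaling (log2 0.80, adjusted p = 0.0970) or without any 1 of 10 mice.

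The genes that rose were mostly receptors and membrane regulators, as were most of the 9 tested genes of the list. C3ar1, the receptor of C3a, rose at 8, 20 and 34 weeks (log2 1.47, 2.27 and 1.83, adjusted p = 0.0112, 0.000119 and 0.00138). C5ar1, the C5a receptor, rose at the same times (log2 1.29, 2.26 and 1.52, adjusted p = 0.0301, 0.000203 and 0.00791), the first call being lost without any 1 of 6 mice (adjusted p up to 0.0973) and in edgeR (adjusted p = 0.108), and C5ar2 passed at 20 weeks (log2 1.61, adjusted p = 0.00126). Cd59a, which blocks the membrane attack complex, rose at 8 and 20 weeks from means of 102 and 106 to 241 and 196 CPM (log2 1.21 and 0.88, adjusted p = 1.04e-05 and 0.000168). Cr1l, the rodent regulator Crry, rose at all 3 times by 0.16, 0.34 and 0.36 (adjusted p = 0.0493, 4.65e-05 and 7.14e-05), the first of which is near the shift of all genes. With TMM scaling its 8- and 20-week differences were 0.05 (adjusted p = 0.491) and 0.13 (adjusted p = 0.0600), and without any 1 of 25 mice the 8-week difference did not pass. Cd55, which speeds the decay of the convertase, did not pass at 20 weeks (log2 -0.41) but did, as lower, with TMM scaling (log2 -0.62, adjusted p = 0.00412). The higher receptors stood beside the macrophage sums given above, whose part in them was not tested.

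Masp1, whose MASP-3 product turns the proenzyme of factor D into the active protease, was under the filter. Its mean was 5.72 ± 1.44 CPM in CD and 0.521 ± 0.440 in HFD mice at 8 weeks (SD, n = 6), and every HFD mouse was below every CD mouse. At 20 weeks the means were 5.66 ± 3.52 and 0.211 ± 0.140 (n = 6), with the groups apart once more. At 34 weeks they were 2.01 ± 1.89 (n = 8) and 0.658 ± 0.466 (n = 6), with overlap. Of all genes tested, 22.8% and 37.2% did not overlap between the diets at 8 and 20 weeks. Cfi and Cd46 were also under the filter, at group means of 0.372 to 2.54 and 0.437 to 1.27 CPM.

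**Figure D5:**
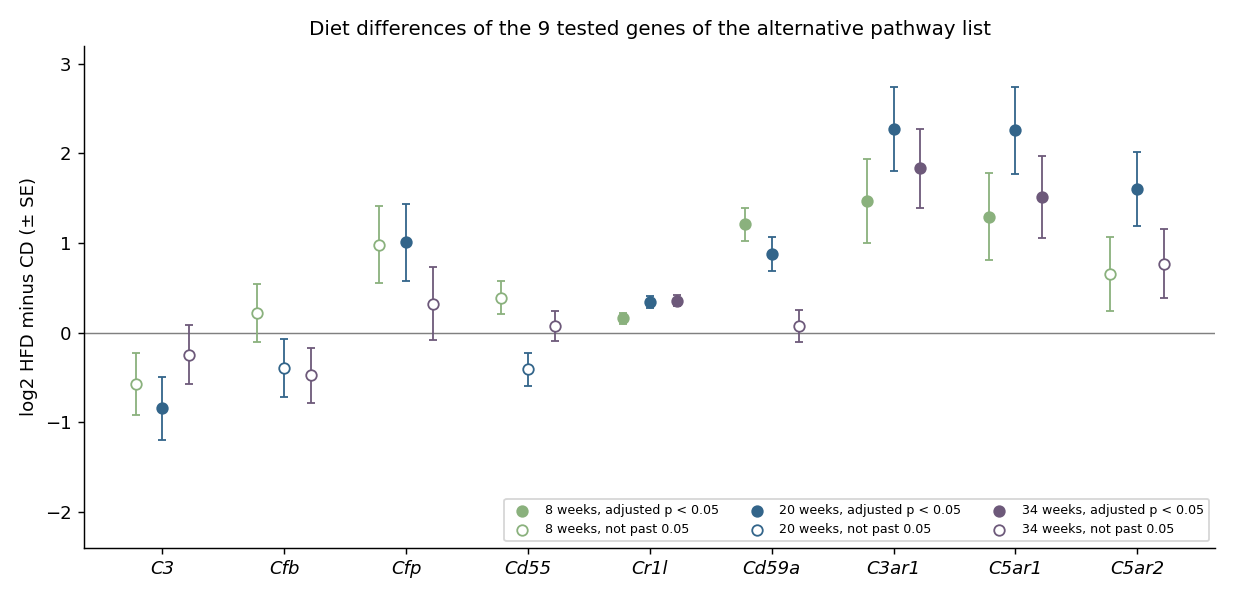
Log2 difference between HFD and CD mice (± SE) of the 9 tested genes of the alternative pathway list at 8, 20 and 34 weeks, with filled points past an adjusted p of 0.05. C3ar1, C5ar1 and Cr1l are above 0 and filled at all 3 times (Cr1l at 8 and 20 weeks does not pass with TMM scaling), and C3 is the one gene below 0 at all 3.

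The genes most like Cfd in their pattern over the 38 mice, by the Pearson correlation of log2(CPM + 1), were Cyp2e1 (0.974), Dennd2d (0.964), Sfxn1 (0.963), Ivd (0.955), Gpt2 (0.954), Lman2l (0.954), Ankef1 (0.950), Echdc2 (0.948), Suclg2 (0.947) and Pacsin3 (0.945). Cyp2e1 encodes a cytochrome P450, Ivd an enzyme of leucine breakdown and Gpt2 a mitochondrial alanine transaminase. The mice share their diet, week and library composition, so these values describe likeness of pattern and no test was made. Cyp2e1 differed between the diets by log2 -2.87, -4.24 and -2.52 at 8, 20 and 34 weeks, close in size to Cfd at each time. Of 10342 genes 85 had a correlation above 0.9, and Prtn3 stood at place 43 with 0.914. Among the other neighbours the values were 0.40 for Kiss1r, 0.10 for R3hdm4, -0.10 for Wdr18, -0.33 for Ptbp1, -0.70 for Arid3a and -0.80 for Med16.

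After each group's mean was subtracted, which leaves the spread between mice of the same diet and week, Cyp2e1 again came first (0.923), followed by Derl1 (0.890), Ces1d (0.885), Gsta4 (0.878), Ivd (0.875), Nat8l (0.872), Agt (0.868), Trf (0.864), Asns (0.858) and Hspb8 (0.853). Agt encodes angiotensinogen, Trf transferrin and Ces1d a carboxylesterase of lipid droplets. Adipoq stood at 0.757 and Cd68, a macrophage marker, at -0.672. Other genes of the adipocyte list differed from Adipoq, with Plin1 at 0.615, Cebpa at 0.539, Pparg at 0.406 and Lep at -0.521. Prtn3 kept a value of 0.608 (place 486 of 10342), Arid3a one of -0.54 and Med16 one of -0.36. The likeness of Prtn3 to Cfd was thus smaller after this step than over all mice. The value pools the 6 groups, which were not alike. In 8-week HFD mice 3 and 2, Prtn3 stood at 2.71 and 15.1 CPM beside Cfd of 805 and 7260. In 8-week CD mice 1 and 5, with the least and most Cfd (14950 and 19823 CPM), Prtn3 was 29.3 and 28.6. In 34-week CD mouse 4, with 11343 CPM of Cfd, Prtn3 was the lowest of its group (6.03 CPM).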

How the data were processed

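The RNA-seq reads of each mouse had been aligned by the authors with STAR to mm10 and counted with featureCounts over the exons of GENCODE vM2 genes, and the submitters' processing notes list STAR 2.5 and 2.5.2b, Subread 1.5.1, edgeR and limma. The deposited values are CPM, made by the authors with 3 technical replicates (114 libraries) merged into 1 column for each of 38 mice. Every column summed to 1000000, so no further scaling between mice is visible, and 100% of the values were whole reads within 0.1 reads, with 9275711 to 15480388 reads a mouse. Counting error is relatively largest for genes of few reads, such as Elane.

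Genes with a mean log2(CPM + 1) above 2 (10343 of 29132) were fitted with limma 3.58.1 (trend) on 6 group means with 32 residual degrees of freedom, and p-values are two-sided and Benjamini-Hochberg adjusted over all genes tested at 0.05. A fold change is on the log2(CPM + 1) scale, which understates changes of low genes. The study names TMM scaling for its CPM, and TMM factors were therefore tried as an alternative. Other alternatives were a pseudocount of 0.25, no filter, median-of-ratios factors, each time alone, mouse number as a block, each mouse left out, and edgeR 4.0.16 and DESeq2 1.42.0 on the recovered reads. The limma step was tested on simulated data.

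Mice are the replicates. Likeness to Cfd was ranked with predicted genes passed over. The named genes were the 9 members, the alternative pathway list, and the 10 genes most like Cfd over all mice and within groups, while genes of the marker lists named beside a result were picked after their values were seen. The members, lists and promoter strings were chosen with earlier results of these data known, and 1 further gene picked for the alternative pathway list is not reported here. Positions and exon lengths came from GENCODE vM21 (GRCm38).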

Additional observations from a re-analysis of the deposited data

Results flagged for a closer look

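Among 54 sets of log2(CPM + 1) values (9 genes in 6 groups), 1 mouse stood far from the others of its group, and chance alone gives about 1 in 20: R3hdm4 in 8-week HFD mouse 2 stood at 79.2 CPM, with 65.3 to 70.0 in the other 5 mice. The diet difference of 3 neighbours differed between times by the interaction term of the limma fit. For Med16 the log2 diet difference at 34 weeks was lower than at 8 weeks, by -0.71 (adjusted p = 0.0106) and than at 20 weeks, by -1.24 (adjusted p = 0.000428). For Kiss1r the corresponding values were -1.26 (adjusted p = 0.0148) and -1.23 (adjusted p = 0.0376). For Wdr18 the diet difference at 34 weeks was below that at 8 weeks by -0.50 (adjusted p = 0.000761), with 0.26 at 8 and -0.23 at 34 weeks.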

How the results depend on the processing

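Of 5043 values of single genes under the alternatives, 4838 kept their side of the threshold, 135 no longer passed and 70 newly passed. A change of sign was found in 82 of the 4838, none of them called, and in 0 of the called values. The log2 difference of Cfd stayed between -2.88 and -2.39 at 8 weeks, -4.24 and -3.65 at 20 weeks, and -3.003 and -2.14 at 34 weeks over the other settings, and with 1 mouse left out between -3.07 and -2.43, -4.24 and -3.88, and -2.86 and -2.48. The number of neighbours called was 5 rather than 3 with edgeR for HFD at 20 weeks, with Elane and Wdr18 in addition, and 3 rather than 5 for HFD at 34 weeks with each time fitted alone, which was run for diet comparisons only. It was 0 rather than 1 for 34 against 20 weeks in HFD with TMM factors, and 1 rather than 2 for the diet difference at 34 against 20 weeks without the filter and with TMM factors. For HFD at 8 weeks the call of Wdr18 was lost with TMM and median-of-ratios factors, in edgeR and in DESeq2. The other window genes called at 8 weeks were 5 rather than 9 with edgeR, and at 34 weeks, 5 in the report, 8 with DESeq2, 8 with edgeR and 2 with each time fitted alone. The alternative pathway genes called at 34 weeks were 5 rather than 3 with DESeq2 and 5 with edgeR. The cause of these changes was not tested.

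With 1 mouse left out, the neighbours called ranged from 3 to 3, 3 to 4 and 2 to 6 for the diet at 8, 20 and 34 weeks, from 0 to 1, 5 to 6 and 5 to 6 in CD and from 1 to 4, 3 to 3 and 0 to 2 in HFD for 20 against 8, 34 against 8 and 34 against 20 weeks. For the diet difference between those times they ranged from 0 to 2, 3 to 4 and 1 to 2. The alternative pathway genes called ranged from 2 to 6, 5 to 8 and 3 to 4, and the other window genes from 6 to 9, 8 to 10 and 2 to 8.

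The labels name no pairing of mice by number, and none was used in the main fit. Deviations of same-numbered mice from their group means had a median correlation of -0.068 over 90 pairs (lowest -0.68, highest 0.55). The median was 0.0026 over 510 others. A median over all pairs cannot show whether some numbers are linked. With the number as a replicate block, 1 neighbour was called rather than 3 for 20 against 8 weeks in HFD and 1 rather than 2 for the diet difference at 34 against 20 weeks. Depth limits Elane, with 2 to 84 reads a mouse.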
